A study of Mus musculus with 8 samples.

Results

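The genes described here are 45 enzymes and enzyme subunits of central carbon metabolism, chosen by name: 15 of glycolysis from hexokinase to pyruvate kinase, 6 of lactate dehydrogenase and the pyruvate dehydrogenase complex, 7 of the pentose phosphate pathway and 17 of the tricarboxylic acid (TCA) cycle with its anaplerotic enzymes. All 45 were found among the 13744 genes of the deposited table. All 45 also passed the filter on low values, which kept 12752 genes. RNA had been sequenced from mouse bone marrow monocytes labelled Ly6C-high, the classical monocytes from which patrolling Ly6C-low monocytes arise. The 8 libraries came from 4 genotypes, with 2 libraries each. These were Bcl6 cKO, in which Bcl6 was knocked out conditionally, Irf2 KO and Nr4a1 KO, which lack Irf2 and Nr4a1 by their labels, and wild type. Bcl6 is a transcriptional repressor, Irf2 an interferon regulatory factor and Nr4a1 an orphan nuclear receptor. The Cre line of the conditional knockout, the deleted exons, the age and sex of the mice, any allele shared by all groups and the number of mice behind the replicates are not stated by the sources used here. The p-values therefore measure the spread between these libraries, which may be technical.

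Glycolysis splits glucose into pyruvate in the cytosol and yields ATP and NADH. Pyruvate is then either reduced to lactate, which regenerates NAD+, or oxidised by the pyruvate dehydrogenase complex to acetyl-CoA, which enters the TCA cycle in mitochondria. The pentose phosphate pathway branches off at glucose 6-phosphate and supplies NADPH, which phagocytes use for the oxidative burst and for defence against oxidants, and ribose for nucleotides. Myeloid cells are known to rely heavily on glycolysis.

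Reads recovered for the genes of the deposited table summed to between 46617756 and 62633123 per library. In these libraries 1 CPM (count per 1000000 reads) stood for 47.9 to 61.8 reads. The targeted genes were examined first. Nr4a1 lay at 2.32 and 2.98 log2 CPM in Nr4a1 KO, against 4.64 and 5.29 in wild type. Irf2 KO libraries also held little Nr4a1, with 2.59 and 2.52 log2 CPM (a change of -2.41 ± 0.27 from wild type, adjusted p = 0.00163). Reads of Nr4a1 were thus similarly few in Irf2 KO and Nr4a1 KO, and whether those reads yield working Nr4a1 was not tested. Irf2 lay at 6.50 and 6.69 log2 CPM in Irf2 KO, against 7.18 and 7.14 in wild type. Libraries labelled Bcl6 cKO held more Bcl6 rather than less, with 6.53 and 6.40 log2 CPM, while wild type had 4.66 and 4.64. Irf2 KO held less Bcl6 than wild type, at 3.37 and 3.79 log2 CPM (-1.07 ± 0.16, adjusted p = 0.00382). A gene that has lost some of its exons is still counted, so whole-gene reads of Bcl6 do not check that label, and the comparison rests on the label as given. The sum of 8 classical monocyte markers ranged from 30758 to 31943 CPM in libraries labelled Bcl6 cKO, 18749 to 21562 CPM in Irf2 KO, 31134 to 36091 CPM in Nr4a1 KO and 29614 to 34278 CPM in wild type.

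Together the 45 genes took up between 1.59% and 1.91% of these recovered reads in a library. Levels of different genes were compared as CPM per kilobase of transcript, averaged over the 2 libraries of a group. Most of the signal came from 5 cytosolic enzymes. The aldolase Aldoa averaged 1262 ± 74.5 CPM per kilobase in libraries labelled Bcl6 cKO, 1326 ± 258 in Irf2 KO, 1109 ± 9.0 in Nr4a1 KO and 1208 ± 13.0 in wild type (SD, n = 2 each). In wild type it was followed by the transaldolase Taldo1 at 1126 ± 61.9, the glyceraldehyde phosphate dehydrogenase Gapdh at 1088 ± 76.4, the pyruvate kinase Pkm at 1046 ± 1.2 and the enolase Eno1 at 983 ± 24.1. Aldoa stood above Gapdh in both wild type libraries, whereas the range of Gapdh overlapped those of Taldo1 and of Pkm, so its place in the order is not resolved.

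Within the other arms a single member also stood clear of its neighbours in wild type. Ldha, the lactate dehydrogenase subunit that favours lactate formation, had 375 ± 26.5 CPM per kilobase in wild type (SD, n = 2), and the next member of its arm, the pyruvate dehydrogenase subunit gene Pdhb, had 95 ± 4.0. Mdh2, the mitochondrial malate dehydrogenase, led the TCA arm at 259 ± 10.6 CPM per kilobase in Nr4a1 KO and 435 ± 28.7 in wild type. Idh3g, a regulatory subunit of NAD-dependent isocitrate dehydrogenase, came next in wild type at 207 ± 10.4. In Nr4a1 KO Idh3g had 187 ± 12.5 and lay below Mdh1, which had 202 and 205 in the 2 libraries. The lowest members were the brain-type aldolase Aldoc, with 40 reads in its lowest library, and the pyruvate carboxylase Pcx, with 23.

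**Figure D1:**
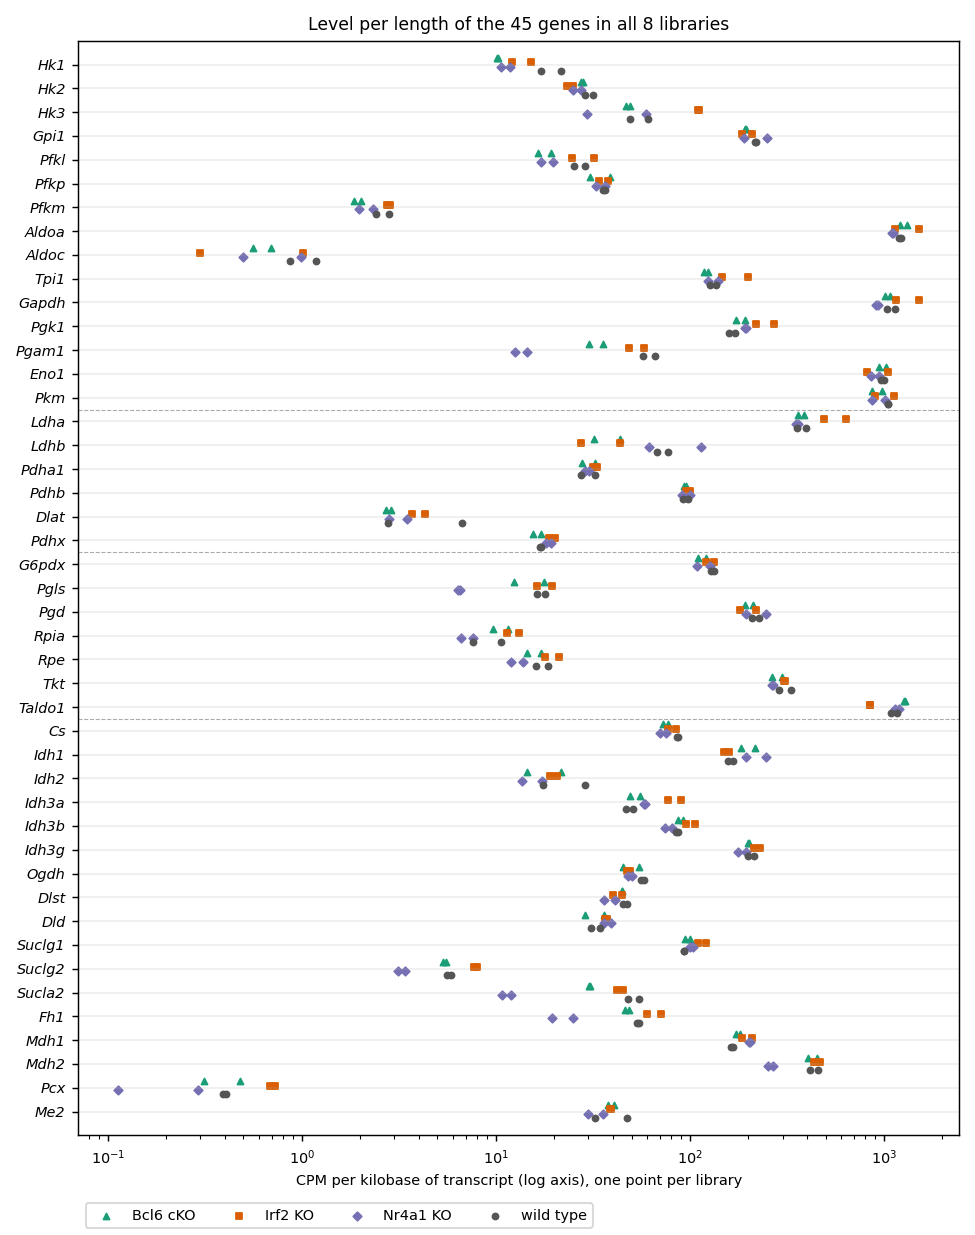
CPM per kilobase of transcript on a log axis for each of the 45 genes, with 1 point per library coloured by genotype and dashed lines between the 4 arms of metabolism. Aldoa, Gapdh, Eno1, Pkm and Taldo1 lie farthest to the right in all 8 libraries, while Pgam1, Sucla2, Fh1, Pgls and Suclg2 have their 2 Nr4a1 KO points set apart to the left.

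Changes are log2 fold changes of the knockout over wild type ± SE from limma, fitted to all 8 libraries, with p-values adjusted by Benjamini-Hochberg over 12752 genes. A gene is called at an adjusted p under 0.05. Of the 45 genes 16 were called in at least 1 comparison with wild type and 29 in none. The 3 comparisons share the same 2 wild type libraries, so a gene called in several of them is not seen independently each time. In bulk RNA, fewer cells of a type and less RNA per cell cannot be told apart.

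Nr4a1 KO monocytes had the largest changes, all of them falls. Of the 45 genes none was called higher and 8 were called lower. Over all genes tested, 15.1% were called, 3.94% higher and 11.2% lower. The members' median change was -0.20 on the log2 scale, beside 0.01 over all genes tested. When GC content and transcript length were corrected for, the members' median was -0.05. Centring each library on its median gave 2 members called higher and 7 lower in Nr4a1 KO. In Irf2 KO 6 members were called higher and 4 lower, where 9.26% of all genes were called higher and 12.3% lower (21.6% in all). Their median change was 0.06, beside -0.04 over all genes. Centring turned the Irf2 KO split into 9 higher and 1 lower. In libraries labelled Bcl6 cKO no member was called higher and 3 were called lower, where 1.36% of all genes were called higher and 3.65% lower (5.01% in all). Their median was -0.08, beside -0.01 over all genes. The 45 genes were thus called at 17.8% in Nr4a1 KO, 22.2% in Irf2 KO and 6.67% in libraries labelled Bcl6 cKO, near the background in each comparison, and what follows concerns single enzymes.

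The 29 genes without a call differed in how tightly their change was bounded. For Aldoa, Eno1 and Pkm the 95% intervals of the log2 change in Nr4a1 KO ran from -0.41 to 0.17, from -0.42 to 0.15 and from -0.46 to 0.13. For Aldoc the interval in Nr4a1 KO ran from -1.83 to 0.77, and for Dlat, a core subunit of the pyruvate dehydrogenase complex, from -1.26 to 0.33. The log2 CPM of Dlat was 4.76 and 3.49 in wild type, the widest gap of any wild type pair among the members, so its change is poorly measured in every comparison.

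**Figure D2:**
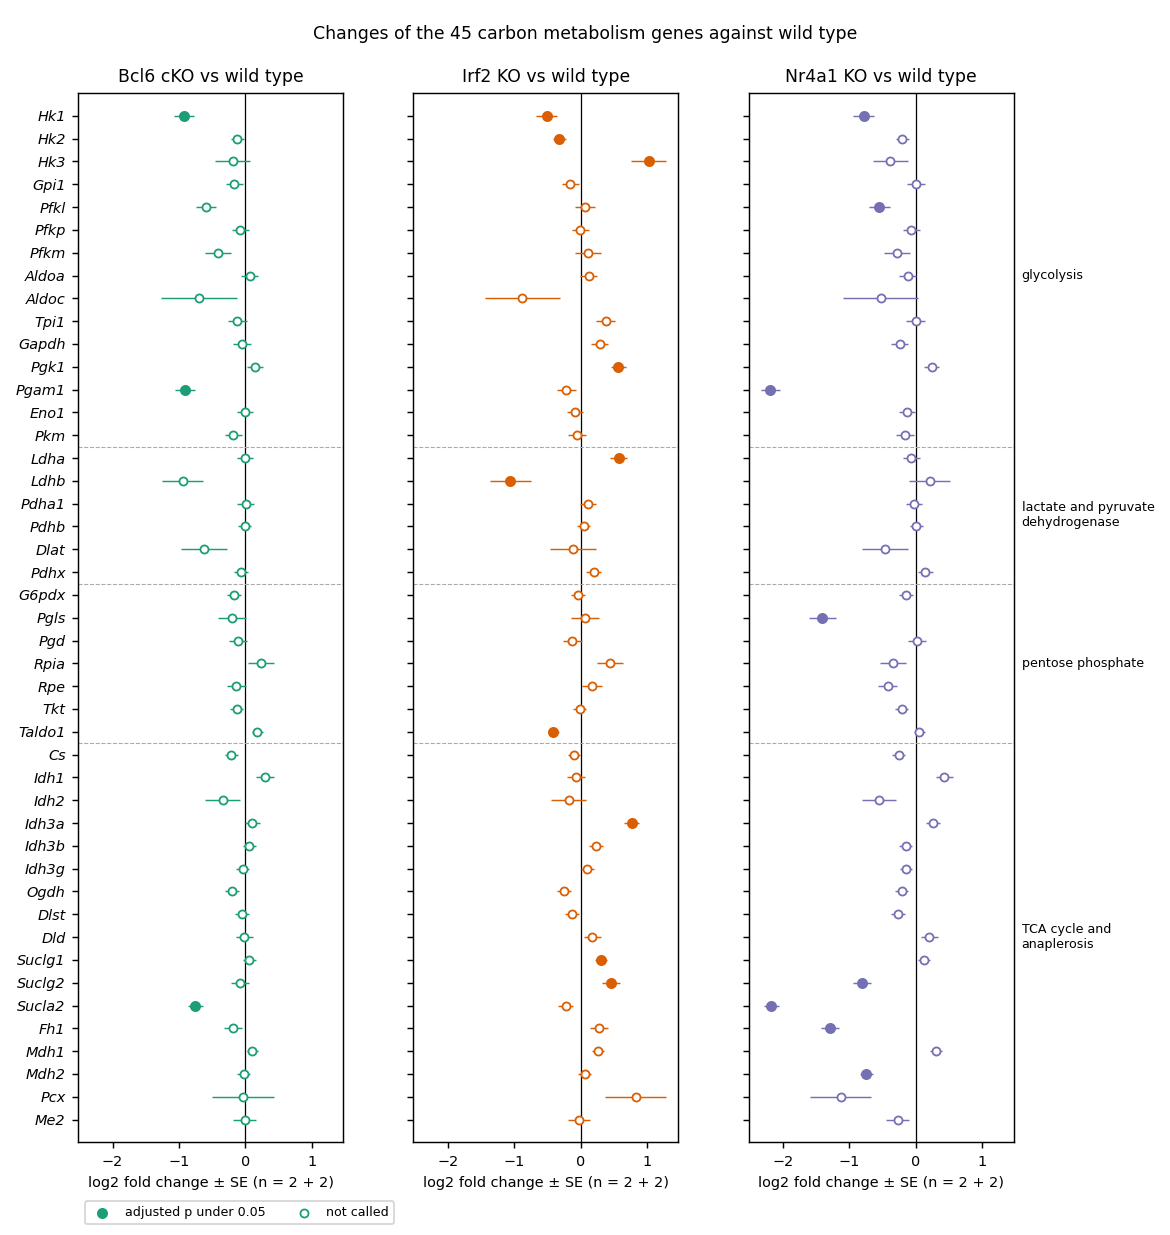
Log2 fold change ± SE of each of the 45 genes for libraries labelled Bcl6 cKO, for Irf2 KO and for Nr4a1 KO against wild type (n = 2 libraries each), with filled points for an adjusted p under 0.05. Falls of over 1 on the log2 scale that were called lie in the Nr4a1 KO panel (Pgam1, Sucla2, Pgls and Fh1), with 1 more in Irf2 KO (Ldhb).

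Among the 15 glycolysis genes, Pgam1, the phosphoglycerate mutase that moves the phosphate of 3-phosphoglycerate ahead of enolase, fell most (ENSMUSG00000011752, chromosome 19, 41911923 to 41918660 on GRCm38). Its level was 4.68 and 4.48 log2 CPM in Nr4a1 KO, against 6.67 and 6.88 in wild type. Both Nr4a1 KO libraries lay well below every other library of the series. The change was -2.19 ± 0.14, a 4.57-fold fall (limma, Benjamini-Hochberg adjusted p = 3.51e-05), and it remained called whichever library was left out. In libraries labelled Bcl6 cKO Pgam1 had 5.75 and 5.98 log2 CPM, between those of Nr4a1 KO and wild type. That change was -0.91 ± 0.14 (adjusted p = 0.0116), and the call ended without Bcl6 cKO replicate 1 or wild type replicate 2 (adjusted p up to 0.125). In Irf2 KO Pgam1 stood at 6.43 and 6.68 log2 CPM and was not called (-0.22 ± 0.14). The gene has processed copies in the genome, and the copy Pgam1-ps2, at -0.61 and -0.43 log2 CPM in Nr4a1 KO against 1.52 and 1.93 in wild type, was counted far below Pgam1 itself. How reads were split between the gene and its copies is not stated.

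Hexokinase traps glucose in the cell as glucose 6-phosphate, and its 3 genes did not move together. Hk1, the form bound to the outer mitochondrial membrane in most tissues, was the 1 member called lower in every knockout. It had 5.30 and 5.28 log2 CPM in libraries labelled Bcl6 cKO, 5.54 and 5.87 in Irf2 KO and 5.36 and 5.50 in Nr4a1 KO, against 6.05 and 6.39 in wild type. All 6 knockout libraries lay below both wild type libraries. The changes against wild type were -0.92 ± 0.15 for Bcl6 cKO (adjusted p = 0.0141), -0.51 ± 0.15 for Irf2 KO (adjusted p = 0.0459) and -0.78 ± 0.15 for Nr4a1 KO (adjusted p = 0.0101). Each of the 3 calls ended without wild type replicate 2 (adjusted p up to 0.241 over all libraries left out), and the calls in Irf2 KO and Nr4a1 KO also ended after the GC and length correction (adjusted p = 0.303 and 0.0573). Exons of Hk1 overlap the antisense gene Hk1os, which held between 115 and 297 reads per library.

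Hk3, a hexokinase found mainly in myeloid cells, had 8.48 and 8.49 log2 CPM in Irf2 KO, against 7.31 and 7.62 in wild type. Both Irf2 KO libraries lay above every other library. The rise was 1.02 ± 0.26, or 2.03-fold (adjusted p = 0.0275). Leaving out any 1 of the Bcl6 cKO, Irf2 KO or wild type libraries ended that call (adjusted p up to 0.125). Hk2, the inducible hexokinase, had 7.10 and 7.01 log2 CPM in Irf2 KO, against 7.32 and 7.44 in wild type, and fell by 0.32 on the log2 scale (SE 0.10, adjusted p = 0.0473). The Hk2 call ended without any 1 of those same libraries, with a replicate block (adjusted p = 0.0522) and after the GC and length correction (adjusted p = 0.454). The Nr4a1 KO libraries differed between themselves in Hk3, at 6.58 and 7.57 log2 CPM, and the change there was -0.39 ± 0.26.

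Pgk1, the phosphoglycerate kinase that makes the first ATP of the payoff phase, rose in Irf2 KO. It had 8.64 and 8.95 log2 CPM there, against 8.28 and 8.18 in wild type. The groups did not overlap, and the change was 0.57 ± 0.12 (adjusted p = 0.0120), with the call lost without Irf2 KO replicate 2 or wild type replicate 2 (adjusted p up to 0.0701). Pfkl, the liver-type phosphofructokinase of the committed step, had 6.21 and 5.99 log2 CPM in Nr4a1 KO, against 6.56 and 6.74 in wild type, a change of -0.55 ± 0.15 (adjusted p = 0.0454). This call was fragile: it ended without either wild type library, either Bcl6 cKO library or Nr4a1 KO replicate 2 (adjusted p up to 0.209) and after the GC and length correction (adjusted p = 0.490). In libraries labelled Bcl6 cKO Pfkl had 6.16 and 5.94 log2 CPM, and its change of -0.60 ± 0.15 was not called (adjusted p = 0.0649). The remaining glycolysis genes Gpi1, Pfkp, Pfkm, Aldoa, Aldoc, Tpi1, Gapdh, Eno1 and Pkm were not called in any comparison with wild type.

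The Irf2 KO libraries differed between themselves in glycolysis. Replicate 2 exceeded replicate 1 in 13 of the 15 glycolysis genes, with a median difference of 0.32 on the log2 scale. Replicate 2 was also the higher in 5 of 6 lactate and pyruvate dehydrogenase genes (median difference 0.08). The same held for 6 of 7 pentose phosphate genes (0.20) and 13 of 17 TCA genes (0.10). For the glycolysis genes the median difference in the other groups was -0.07 in libraries labelled Bcl6 cKO, 0.01 in Nr4a1 KO and 0.02 in wild type. In wild type, replicate 2 was the higher in 7 of 7 pentose phosphate genes (median difference 0.13). In Irf2 KO the summed level of 12 neutrophil markers was 514 CPM in replicate 1 and 1202 CPM in replicate 2. That sum was 1254 and 1041 CPM in libraries labelled Bcl6 cKO and 2586 and 2146 CPM in Nr4a1 KO, against 2235 and 1882 CPM in wild type. Of these markers 6 of 12 were called lower in Irf2 KO, and none was at 0 reads in any library. The summed level of 6 early myeloid progenitor markers was 3569 and 4554 CPM in Irf2 KO, the higher value again in replicate 2, against 1685 and 1943 CPM in wild type. It was 2484 and 2136 CPM in libraries labelled Bcl6 cKO and 1893 and 1972 CPM in Nr4a1 KO. Of these progenitor markers 5 were called higher in Irf2 KO (Mpo, Elane, Prtn3, Ctsg and Ms4a3) and 1 lower (Cd34), and none of the 6 was at 0 reads. The part of either marker list in the Irf2 KO values was not tested.

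Lactate dehydrogenase showed opposite movement of its subunits in Irf2 KO. Ldha had 9.76 and 10.13 log2 CPM in Irf2 KO, against 9.44 and 9.30 in wild type. Both Irf2 KO libraries were the highest of the 8. The change was 0.57 ± 0.13 (adjusted p = 0.0156), lost without Irf2 KO replicate 2 or wild type replicate 2 (adjusted p up to 0.0903). Ldhb, the subunit that favours lactate oxidation, had 5.84 and 5.16 log2 CPM in Irf2 KO, against 6.66 and 6.46 in wild type. The Irf2 KO values lay below both wild type values but were far apart themselves, and the change of -1.06 ± 0.31 passed the test narrowly (adjusted p = 0.0404). The Ldhb call ended without Irf2 KO replicate 2 or any wild type or Bcl6 cKO library (adjusted p up to 0.214), after the GC and length correction (0.0509), and with each library centred or quantile normalised.

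The libraries labelled Bcl6 cKO held Ldhb at 5.39 and 5.83 log2 CPM, also below wild type, but the change of -0.95 ± 0.31 did not pass the test (adjusted p = 0.121). The subunit genes of the pyruvate dehydrogenase complex, Pdha1, Pdhb, Dlat and Pdhx, were not called in any comparison. For Pdhb, part of the catalytic E1 component, the log2 changes were -0.01 ± 0.10 for libraries labelled Bcl6 cKO, 0.05 ± 0.10 for Irf2 KO and 0.01 ± 0.10 for Nr4a1 KO.

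**Figure D3:**
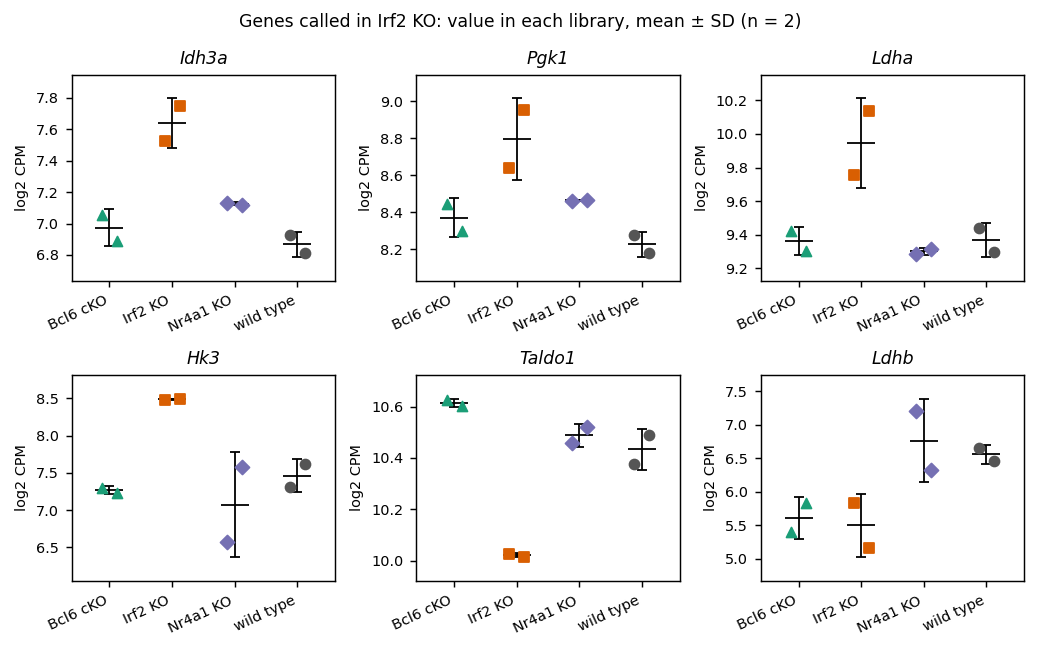
Log2 CPM in each library of 6 genes called in Irf2 KO, with the mean and SD of each genotype (n = 2) as bars. Idh3a, Pgk1, Ldha and Hk3 have their highest 2 values in Irf2 KO, Taldo1 its lowest 2, and the Ldhb values of Irf2 KO (5.84 and 5.16) interleave with those of Bcl6 cKO.

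In the pentose phosphate pathway 1 member was called in Irf2 KO and another in Nr4a1 KO. Pgls, the 6-phosphogluconolactonase of the oxidative branch, had 2.50 and 2.54 log2 CPM in Nr4a1 KO, against 3.86 and 3.99 in wild type. The Nr4a1 KO libraries were the lowest of the 8 and nearly equal. The change was -1.41 ± 0.21, a 2.65-fold fall (adjusted p = 0.00233) that was called whichever library was left out. Exons of Pgls overlap those of Fam129c on the same strand, and Fam129c held between 14 and 63 reads per library, while Pgls held at least 278.

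Taldo1, which joins the nonoxidative branch back to glycolysis, had 10.03 and 10.02 log2 CPM in Irf2 KO, against 10.38 and 10.49 in wild type. The Irf2 KO values were the lowest of the series, with a change of -0.41 ± 0.08 (adjusted p = 0.0115). The call ended without either Irf2 KO library or wild type replicate 2 (adjusted p up to 0.0749). The enzymes that make NADPH, G6pdx and Pgd, were not called, with changes between -0.17 and 0.01 over the 3 comparisons. Rpia, Rpe and Tkt, which interconvert pentose phosphates, were likewise not called against wild type, and Rpe had its largest change in Nr4a1 KO (-0.42 ± 0.15, adjusted p = 0.0914).

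Of the 8 falls called in Nr4a1 KO, 4 were among the 17 TCA genes. Sucla2, the ADP-forming beta subunit of succinyl-CoA ligase (ENSMUSG00000022110, chromosome 14, 73525319 to 73596142), had 4.58 and 4.74 log2 CPM in Nr4a1 KO, against 6.92 and 6.74 in wild type. The fall of 2.17 on the log2 scale (SE 0.11) amounted to 4.51-fold (adjusted p = 1.69e-05). Suclg2, the GTP-forming beta subunit, had 3.51 and 3.40 log2 CPM in Nr4a1 KO, against 4.30 and 4.24 in wild type (-0.82 ± 0.14, adjusted p = 0.00440). For both subunits the Nr4a1 KO libraries lay below every other library. Suclg1, the alpha subunit that pairs with either, had 7.24 and 7.30 log2 CPM in Nr4a1 KO, against 7.15 and 7.14 in wild type (0.12 ± 0.09, adjusted p = 0.410).

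Fh1, the fumarase gene (chromosome 1, 175600374 to 175625635), and Mdh2 encode the last enzymes of the cycle before oxaloacetate. Fh1 had 5.68 and 6.04 log2 CPM in Nr4a1 KO, against 7.16 and 7.14 in wild type, a 2.44-fold fall (-1.29 ± 0.14, adjusted p = 0.000397). Mdh2 had 8.60 and 8.52 log2 CPM in Nr4a1 KO, against 9.37 and 9.24 in wild type (-0.75 ± 0.10, adjusted p = 0.00108). The other 6 libraries lay above both Nr4a1 KO libraries for each of these genes. Mdh1, the cytosolic malate dehydrogenase, had 8.75 and 8.76 log2 CPM in Nr4a1 KO, against 8.43 and 8.47 in wild type, and just missed the threshold (0.31 ± 0.09, adjusted p = 0.0520). The falls of Sucla2, Suclg2, Fh1 and Mdh2 were called whichever library was left out and under every other setting tried.

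**Figure D4:**
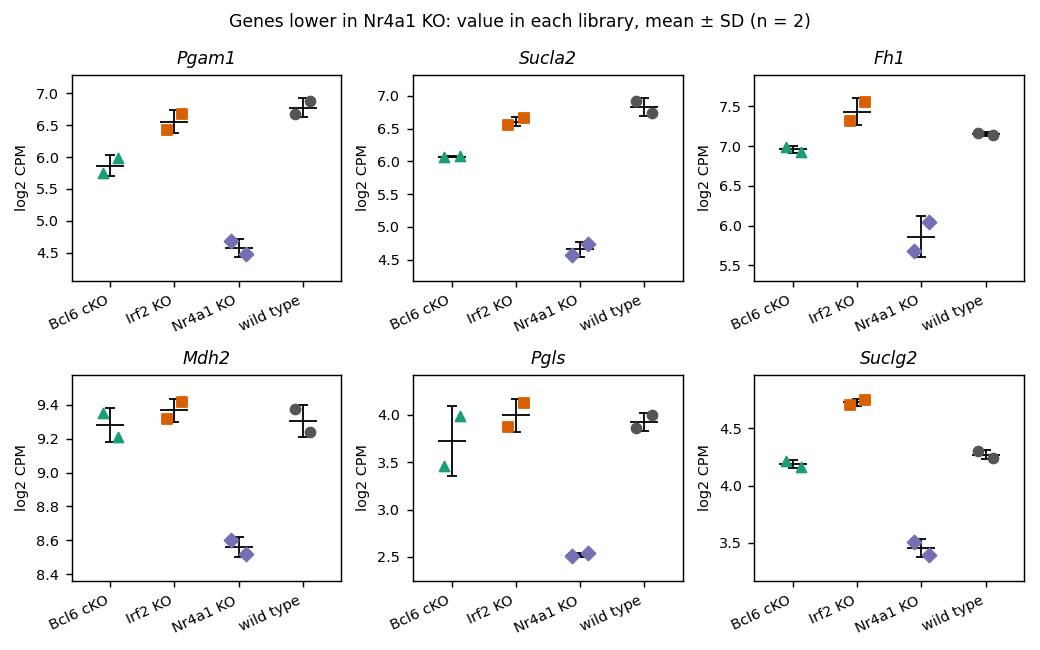
Log2 CPM in each library of the 6 genes whose fall in Nr4a1 KO was called whichever library was left out, with the mean and SD of each genotype (n = 2) as bars. In each panel both Nr4a1 KO points lie below the other 6 libraries, and for Pgam1 and Sucla2 the Bcl6 cKO points lie between Nr4a1 KO and wild type.

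In Irf2 KO 3 TCA genes rose. Idh3a, the catalytic subunit of NAD-dependent isocitrate dehydrogenase, had 7.53 and 7.75 log2 CPM in Irf2 KO, against 6.93 and 6.81 in wild type. Both Irf2 KO values were the highest of the 8, and the change of 0.77 ± 0.11, or 1.70-fold (adjusted p = 0.00350), was the 1 Irf2 KO call among the members that held whichever library was left out. Suclg2 had 4.70 and 4.75 log2 CPM in Irf2 KO, against 4.30 and 4.24 in wild type (0.46 ± 0.14, adjusted p = 0.0435). Suclg1 had 7.39 and 7.52 log2 CPM in Irf2 KO, against 7.15 and 7.14 in wild type (0.31 ± 0.09, adjusted p = 0.0452). The calls of both ligase subunits ended without any 1 of the Bcl6 cKO, Irf2 KO or wild type libraries (adjusted p up to 0.223) and after the GC and length correction (adjusted p = 0.0628 for Suclg2 and 0.113 for Suclg1). The partner subunits of Idh3a did not pass, with changes of 0.23 ± 0.10 for Idh3b and 0.10 ± 0.09 for Idh3g.

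In libraries labelled Bcl6 cKO Sucla2 was the 1 TCA gene called. It had 6.07 and 6.08 log2 CPM there, against 6.92 and 6.74 in wild type, a change of -0.76 ± 0.11 (adjusted p = 0.010). The 2 Bcl6 cKO values were nearly equal and lay between those of Nr4a1 KO and wild type, but the call ended without either Bcl6 cKO library or wild type replicate 1 (adjusted p up to 0.110). The TCA and anaplerotic genes Cs, Idh1, Idh2, Idh3b, Idh3g, Ogdh, Dlst, Dld, Mdh1, Pcx and Me2 were not called against wild type in any knockout. Idh1, the cytosolic NADP-dependent isocitrate dehydrogenase, came nearest after Mdh1, at 0.43 ± 0.13 in Nr4a1 KO (adjusted p = 0.0595).

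Shares of isoenzymes within a library put these changes on a scale that does not depend on the library total. Hk3 made up 74.9% and 74.4% of the hexokinase signal per kilobase in Irf2 KO, against 51.6% and 53.4% in wild type. Suclg2 made up 24.0% and 20.8% of the 2 beta subunits of succinyl-CoA ligase in Nr4a1 KO, against 9.70% and 10.5% in wild type, where Sucla2 had the larger fall. Its share was also above wild type in libraries labelled Bcl6 cKO (15.5% and 14.9%) and in Irf2 KO (15.5% and 15.0%). Cytosolic Mdh1 made up 43.1% and 44.9% of malate dehydrogenase in Nr4a1 KO, and between 26.3% and 30.8% in the other 6 libraries. Ldhb made up 8.20% and 4.14% of lactate dehydrogenase in Irf2 KO, against 16.4% and 15.9% in wild type. The Ldhb share was also below wild type in libraries labelled Bcl6 cKO (7.66% and 10.8%), and was 24.3% and 14.5% in Nr4a1 KO. These shares are descriptions and carry no test of their own.

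**Figure D5:**
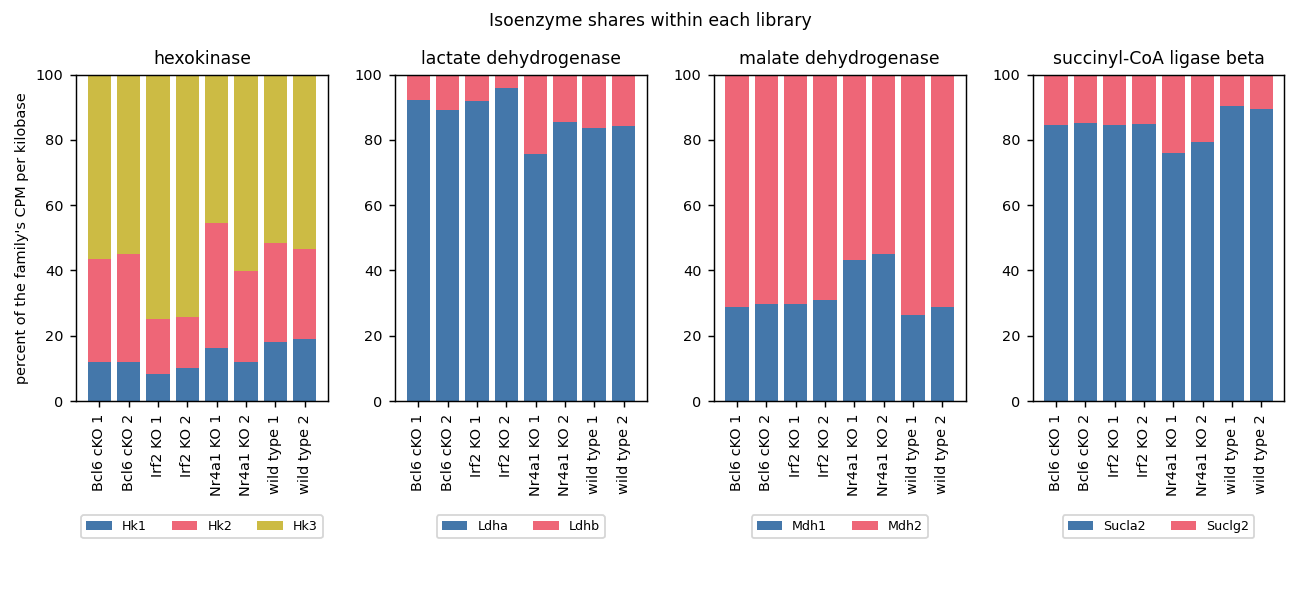
Percent of each enzyme family's summed CPM per kilobase taken by each isoenzyme, with 1 stacked bar per library in the order Bcl6 cKO, Irf2 KO, Nr4a1 KO and wild type. The Hk3 part is largest in Irf2 KO, and the Mdh1 and Suclg2 parts are largest in Nr4a1 KO.

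Comparing the knockouts with each other leaves the wild type libraries out of the difference. In Irf2 KO against Nr4a1 KO 15 of the 45 genes were called higher and 3 lower (40.0%), where 12.4% of all genes were called higher and 9.94% lower (22.3% in all). Markers of other cell types and states moved in the same comparison. Of 12 neutrophil markers 9 were called lower, of 6 early myeloid progenitor markers 4 were called higher and 1 lower, and of 7 cell cycle genes 5 were called higher. The cell cycle genes summed to 2401 and 2327 CPM in Irf2 KO, against 1860 and 1736 CPM in Nr4a1 KO, none of them at 0 reads in any library. The part of these markers in the difference was not tested. The members higher in Irf2 KO were Hk3, Pfkl, Gapdh and Pgam1 of glycolysis, Ldha, then Pgls, Rpia and Rpe of the pentose phosphate pathway, and Idh3a, Idh3b, Suclg2, Sucla2, Fh1, Mdh2 and Pcx. Those lower were Ldhb, Taldo1 and Idh1. The largest differences were 1.97 ± 0.14 for Pgam1 (adjusted p = 7.2e-05), 1.96 ± 0.46 for Pcx (adjusted p = 0.0175) and 1.95 ± 0.11 for Sucla2 (adjusted p = 3.2e-05). The call of Pcx, which refills the cycle with oxaloacetate, rests on few reads and ended without either Irf2 KO library or Nr4a1 KO replicate 1 (adjusted p up to 0.0793). The calls of Pgam1, Sucla2, Fh1, Mdh2, Pgls, Suclg2, Hk3, Ldha and Taldo1 held whichever library was left out, and the other 9 calls each ended without at least 1 Irf2 KO library (adjusted p up to 0.168).

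In libraries labelled Bcl6 cKO against Nr4a1 KO 6 genes were called higher and none lower, where 4.97% of all genes were called higher and 0.776% lower (5.75% in all). They were Pgam1 (1.28 ± 0.14, adjusted p = 0.00123), Sucla2 (1.42 ± 0.11, adjusted p = 0.000268), Fh1 (1.10 ± 0.14, adjusted p = 0.00210), Pgls (1.20 ± 0.21, adjusted p = 0.0107), Suclg2 (0.73 ± 0.14, adjusted p = 0.0144) and Mdh2 (0.72 ± 0.10, adjusted p = 0.00280). The Nr4a1 KO level of these 6 genes was thus below that of both other knockouts as well as wild type. The call of Pgls ended without Bcl6 cKO replicate 2 and that of Suclg2 without either Bcl6 cKO library (adjusted p up to 0.104). In libraries labelled Bcl6 cKO against Irf2 KO Taldo1 was called higher and Hk3, Pfkl, Pgam1, Ldha, Idh3a, Suclg2 and Sucla2 lower, where 5.68% of all genes were called higher and 3.87% lower (9.55% in all). Each of these 8 calls ended without either of the Bcl6 cKO libraries (adjusted p up to 0.206).

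Promoter sequences are shown for the 2 genes with the largest falls in Nr4a1 KO and for Ldha and Pgk1, which rose in Irf2 KO. Ldha and Pgk1 were not the largest rises there, since Hk3 and Idh3a rose more and are not shown. Each is the 250 bases before the transcription start annotated by RefSeq on GRCm38.p6, read 5′ to 3′ on the plus strand, the strand of all 4 genes. Capitals mark the letters ACGTG, the core of the hypoxia response element, on either strand, together with the E-box CACGTG, which contains ACGTG on both strands. The Pgam1 window is chr19:41911621-41911870, the Sucla2 window chr14:73552536-73552785 (inside the annotated span of the gene), the Ldha window chr7:46845554-46845803 and the Pgk1 window chrX:106186850-106187099.
Pgam1: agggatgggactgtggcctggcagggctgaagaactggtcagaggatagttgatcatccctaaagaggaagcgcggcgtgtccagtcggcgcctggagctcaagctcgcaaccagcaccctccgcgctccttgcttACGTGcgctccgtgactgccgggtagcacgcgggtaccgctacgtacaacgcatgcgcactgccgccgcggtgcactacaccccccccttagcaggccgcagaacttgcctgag
Sucla2: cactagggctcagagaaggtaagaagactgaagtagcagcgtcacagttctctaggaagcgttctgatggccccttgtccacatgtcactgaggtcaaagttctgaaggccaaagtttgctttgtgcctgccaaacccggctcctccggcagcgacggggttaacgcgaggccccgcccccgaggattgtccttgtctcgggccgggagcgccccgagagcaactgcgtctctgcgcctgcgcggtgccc
Ldha: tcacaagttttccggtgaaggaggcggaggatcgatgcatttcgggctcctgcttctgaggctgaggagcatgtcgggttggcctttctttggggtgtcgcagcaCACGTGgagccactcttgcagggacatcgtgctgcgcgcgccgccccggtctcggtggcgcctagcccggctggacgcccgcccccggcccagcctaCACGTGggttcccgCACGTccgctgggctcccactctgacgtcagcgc
Pgk1: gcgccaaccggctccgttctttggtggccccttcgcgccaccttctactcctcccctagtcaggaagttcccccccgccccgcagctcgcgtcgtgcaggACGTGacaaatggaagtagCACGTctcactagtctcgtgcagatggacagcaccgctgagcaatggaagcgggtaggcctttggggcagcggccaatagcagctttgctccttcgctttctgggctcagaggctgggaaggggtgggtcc
Motif positions count backwards from the start site. The Pgam1 window holds ACGTG at -114 and the Pgk1 window at -150 and -131. The Hk3 window, not shown, holds ACGTG at -156. The Ldha window shown, 1 of 2 for that gene, holds CACGTG at -145 and -48 and a further ACGTG at -34. The other Ldha window, chr7:46846832-46847081, holds neither motif, nor does the Sucla2 window. Over 62 windows of 43 members, 20 windows (32.3%) held ACGTG, beside 16.6% of 32851 windows of all genes, and 6 (9.68%) held CACGTG, beside 6.02%. The NR4A element AAAGGTCA was found in 1 member window (1.61%, Eno1), beside 1.34%, and the IRF element GAAANNGAAA in 2 (3.23%, Rpe and Suclg2), beside 2.98%. Both strands were searched in each case. The Fh1 and Mdh2 windows held none of the 4 motifs. Idh3a and Me2 were not matched.

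Genes around these enzymes were examined from lists of related functions, starting with transporters of glucose, lactate, pyruvate and dicarboxylates. Of 16 tested, none was called higher and 6 lower in libraries labelled Bcl6 cKO, 1 higher and 5 lower in Irf2 KO, and none higher and 6 lower in Nr4a1 KO, or 37.5% in each. Over all genes the share called was 5.01% for Bcl6 cKO, 21.6% for Irf2 KO and 15.1% for Nr4a1 KO. Mpc2, a subunit of the mitochondrial pyruvate carrier, had 3.92 and 4.49 log2 CPM in libraries labelled Bcl6 cKO, 4.82 and 4.95 in Irf2 KO and 3.73 and 3.62 in Nr4a1 KO, against 6.75 and 6.05 in wild type. All knockout libraries lay below both wild type libraries. The change was -2.20 ± 0.25 for Bcl6 cKO (adjusted p = 0.00401), -1.52 ± 0.25 for Irf2 KO (adjusted p = 0.00540) and -2.73 ± 0.25 for Nr4a1 KO (adjusted p = 0.000167), while the partner subunit Mpc1 was not called. The Mpc2 call of Bcl6 cKO ended without its replicate 1 (adjusted p = 0.0579).

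Bsg (basigin), the chaperone that lactate transporters need to reach the membrane, had 5.06 and 5.48 log2 CPM in libraries labelled Bcl6 cKO, 5.79 and 6.20 in Irf2 KO and 4.85 and 4.80 in Nr4a1 KO, against 7.93 and 6.74 in wild type. The knockout libraries all lay below wild type, although the wild type pair was itself wide. The change was -2.07 ± 0.33 for Bcl6 cKO (adjusted p = 0.0126), -1.34 ± 0.33 for Irf2 KO (adjusted p = 0.0241) and -2.51 ± 0.33 for Nr4a1 KO (adjusted p = 0.00129). The call of Bcl6 cKO ended without either of its libraries, and that of Irf2 KO without either of its libraries or wild type replicate 1 (adjusted p up to 0.136). The Bsg call of Irf2 KO also ended after the GC and length correction (adjusted p = 0.0556). Slc16a1, a lactate transporter, had 3.57 and 4.33 log2 CPM in Irf2 KO, against 2.36 and 1.90 in wild type, and rose by 1.82 ± 0.31 (adjusted p = 0.00633). Other monocarboxylate transporters, named here after their values were seen, were called lower. Slc16a3, which exports lactate, had 5.17 and 5.10 log2 CPM in libraries labelled Bcl6 cKO, 5.07 and 5.32 in Irf2 KO and 4.72 and 4.65 in Nr4a1 KO, against 5.78 and 6.09 in wild type. Its change was -0.80 ± 0.14 for Bcl6 cKO (adjusted p = 0.0185), -0.74 ± 0.14 for Irf2 KO (adjusted p = 0.0102) and -1.25 ± 0.14 for Nr4a1 KO (adjusted p = 0.000622). The Nr4a1 KO call held whichever library was left out. After the GC and length correction the calls of Bcl6 cKO and Irf2 KO ended (adjusted p = 0.0598 and 0.0620). The Slc16a3 call of Bcl6 cKO ended without either Bcl6 cKO library or wild type replicate 2, and that of Irf2 KO without Irf2 KO replicate 1 or wild type replicate 2 (adjusted p up to 0.131). Slc16a7 was called lower in Irf2 KO (-0.82 ± 0.23, adjusted p = 0.0384), a call lost without either Irf2 KO or wild type library (adjusted p up to 0.198). The Slc16a7 call also ended after the GC and length correction (adjusted p = 0.0559). The mitochondrial dicarboxylate carrier Slc25a10 had 3.88 and 3.84 log2 CPM in Nr4a1 KO, against 5.73 and 5.89 in wild type (-1.95 ± 0.14, adjusted p = 4.75e-05). The calls of Slc16a1 in Irf2 KO and of Slc25a10 held whichever library was left out. Slc2a9, a urate transporter of the glucose transporter family, was lower in libraries labelled Bcl6 cKO (-1.43 ± 0.22, adjusted p = 0.0106). That call was lost without either Bcl6 cKO library or wild type replicate 1. Slc2a9 was also called lower in Irf2 KO (-0.94, adjusted p = 0.019). The Irf2 KO call was lost without either Irf2 KO library or either wild type library, and after the GC and length correction (adjusted p = 0.0627).

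Among 13 regulators of glycolytic and pyruvate flux, Irf2 KO had 1 called higher and 3 lower (30.8%). Over all genes 9.26% were called higher there and 12.3% lower (21.6% in all). Libraries labelled Bcl6 cKO and Nr4a1 KO had 1 call each (7.69%), beside 5.01% and 15.1% of all genes. Pfkfb4, which sets the level of a sugar phosphate that activates phosphofructokinase, had 4.72 and 4.52 log2 CPM in Irf2 KO, against 5.98 and 6.24 in wild type (-1.49 ± 0.14, adjusted p = 0.00115). Txnip, an inhibitor of glucose uptake, had 6.28 and 6.07 log2 CPM in Irf2 KO, against 7.14 and 7.55 in wild type (-1.17 ± 0.16, adjusted p = 0.00304). Both genes were lower in Irf2 KO than in any other library, and both calls held whichever library was left out. The related Pfkfb2 changed by -1.05 ± 0.31 (adjusted p = 0.0418), a call lost without any 1 of the Bcl6 cKO, Irf2 KO or wild type libraries (adjusted p up to 0.169). For libraries labelled Bcl6 cKO the 1 call was Pfkfb4 (-0.70 ± 0.14, adjusted p = 0.0313), and in Nr4a1 KO it was the mitochondrial phosphoenolpyruvate carboxykinase Pck2 (-0.51 ± 0.14, adjusted p = 0.0420). Both calls, and that of Pfkfb2 in Irf2 KO, ended after the GC and length correction (adjusted p = 0.0844, 0.0977 and 0.0557). The call of Pfkfb4 in Bcl6 cKO ended without any Bcl6 cKO or wild type library (adjusted p up to 0.204), and that of Pck2 without any library other than wild type replicate 1 (adjusted p up to 0.223).

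Further enzymes of the same pathways were also examined. Over all genes 5.01% were called for Bcl6 cKO, 21.6% for Irf2 KO and 15.1% for Nr4a1 KO. In Irf2 KO 27.3% of the other TCA and linked enzymes were called, and 28.6% of the other pentose phosphate and ribose enzymes. In Nr4a1 KO 16.7% of the other glycolytic isoenzymes were called. Of 11 other TCA and linked enzymes, which include aconitase and succinate dehydrogenase, none was called in libraries labelled Bcl6 cKO, and 2 were called higher and 1 lower in Irf2 KO. The cytosolic aconitase Aco1 had 4.87 and 4.88 log2 CPM in Irf2 KO, against 5.52 and 5.52 in wild type (-0.65 ± 0.11, adjusted p = 0.00683), and that call held whichever library was left out. The rises of Got1 and Sdhd in Irf2 KO (0.77 ± 0.21 and 0.29 ± 0.09) had adjusted p of 0.0350 and 0.0480. After the GC and length correction Sdhd was no longer called (change 0.12, adjusted p = 0.362). The Got1 call ended without Irf2 KO replicate 2 or either wild type library, and that of Sdhd without any 1 of the Bcl6 cKO, Irf2 KO or wild type libraries (adjusted p up to 0.204). Of 7 other pentose phosphate and ribose enzymes, the phosphoribosyl pyrophosphate synthetases Prps1 (0.71 ± 0.16, adjusted p = 0.0150) and Prps2 (0.52 ± 0.14, adjusted p = 0.0281) rose in Irf2 KO, and both calls ended without Irf2 KO replicate 2 or wild type replicate 2, that of Prps2 also without the other Irf2 KO or wild type library or either Bcl6 cKO library (adjusted p up to 0.142). Of 6 other glycolytic isoenzymes, 1 was called, Bpgm in Nr4a1 KO (0.67 ± 0.19, adjusted p = 0.0454), and its call was lost without any 1 library (adjusted p up to 0.221).

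Of 9 genes of glycogen and hexose phosphate metabolism none was called higher, and 2, 3 and 1 were called lower in Bcl6 cKO, Irf2 KO and Nr4a1 KO. These were 22.2%, 33.3% and 11.1% of the list, beside 3.65%, 12.3% and 11.2% of all genes called lower. The Nr4a1 KO share was thus near that of all genes. Ugp2, which makes UDP-glucose for glycogen, had 5.51 and 5.50 log2 CPM in libraries labelled Bcl6 cKO, 5.64 and 5.92 in Irf2 KO and 5.09 and 5.35 in Nr4a1 KO, against 6.52 and 6.24 in wild type. Each knockout lay below wild type, by 0.88 ± 0.15, 0.60 ± 0.15 and 1.16 ± 0.15 on the log2 scale (adjusted p = 0.0155, 0.0252 and 0.00116). The call of Bcl6 cKO ended without either Bcl6 cKO library or wild type replicate 1, and that of Irf2 KO without Irf2 KO replicate 1 or wild type replicate 1 (adjusted p up to 0.142). Pygl, the glycogen phosphorylase of liver and leukocytes, changed by -0.64 ± 0.11 in Irf2 KO (adjusted p = 0.00727), and that call held whichever library was left out. The glycogen synthase Gys1 for libraries labelled Bcl6 cKO (-0.93 ± 0.19, adjusted p = 0.0313) and the brain-form phosphorylase Pygb in Irf2 KO (-0.41 ± 0.13, adjusted p = 0.0491) were calls lost without any 1 of the Bcl6 cKO, Irf2 KO or wild type libraries. Both calls also ended after the GC and length correction (adjusted p = 0.0646 for Gys1 and 0.466 for Pygb).

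Among 17 genes of the HIF and MYC pathways, which control many glycolytic genes, Nr4a1 KO had 1 called higher and 4 lower (29.4%). Over all genes 3.94% were called higher there and 11.2% lower (15.1% in all). The share of the 17 called was 11.8% in libraries labelled Bcl6 cKO and 17.6% in Irf2 KO, beside 5.01% and 21.6% of all genes. Myc had 2.19 and 3.0 log2 CPM in Nr4a1 KO, against 4.77 and 4.84 in wild type (-2.21 ± 0.25, adjusted p = 0.000567). Egln2, whose prolyl hydroxylase marks HIF for degradation, had 4.01 and 4.07 log2 CPM in Nr4a1 KO, against 5.43 and 5.80 in wild type (-1.58 ± 0.16, adjusted p = 0.000316). Both Nr4a1 KO libraries were the lowest of the series for each gene, and both calls held whichever library was left out. Ddit4, a stress-induced inhibitor of mTOR signalling, had -0.74 and -1.94 log2 CPM in Nr4a1 KO, against 1.14 and 3.12 in wild type (-3.47 ± 0.72, adjusted p = 0.0128), a call lost without wild type replicate 2 (adjusted p = 0.0826). The 1 gene called higher, named here after its values were seen, was Hif1a, with 4.76 and 4.85 log2 CPM in Nr4a1 KO, against 4.06 and 3.94 in wild type (0.81 ± 0.14, adjusted p = 0.00489). For libraries labelled Bcl6 cKO and for Irf2 KO, Egln2 (-1.15 ± 0.16 and -0.94 ± 0.16) and Vhl, the HIF ubiquitin ligase subunit (-1.06 ± 0.22 and -0.98 ± 0.22), were also called lower, and Ero1l, an oxidase of the endoplasmic reticulum, was called higher in Irf2 KO (0.70 ± 0.19). After the GC and length correction the Vhl call of Bcl6 cKO and the Ero1l call ended (adjusted p = 0.0568 and 0.0523). The Vhl call of Bcl6 cKO ended without either Bcl6 cKO library or wild type replicate 1, the Vhl call of Irf2 KO without Irf2 KO replicate 2 or wild type replicate 1, the Egln2 call of Bcl6 cKO without Bcl6 cKO replicate 1 and the Ero1l call without any 1 of the Bcl6 cKO, Irf2 KO or wild type libraries (adjusted p up to 0.206).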

How the data were processed

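RNA of Ly6C-high monocytes was sequenced in 8 libraries (2 per genotype, paired 150-base reads). Per the labels' protocols cDNA was synthesised from 10 ng of RNA and amplified for 12 to 15 cycles, and no strand-marking step is named. The submitters' processing notes name STAR, featureCounts, Salmon and limma with mm10, without their roles. The authors deposited log2 CPM per library. Undoing log2((reads + 0.5)/(scaled total + 1)) gave values within 0.01 of whole reads. Their log2 fold changes, p-values and adjusted p-values, also deposited, served only as an alternative.

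Of 13789 rows, 45 repeats were left out. A limma 3.58.1 model (R 4.3.3) with 4 group means and a trend in the prior variance was fitted to 12752 genes with a geometric mean of at least 1 CPM, with Benjamini-Hochberg adjustment and a threshold of 0.05 (4 residual degrees of freedom). The unit was log2, so a count model was not the main test. The procedure was tested on simulated data. Transcript lengths came from GENCODE M21 principal transcripts, figures from matplotlib 3.10.9. Members and lists were chosen with earlier results of these data known. All members are accounted for. Per-library values are given for the 4 largest called rises and falls per comparison with wild type, for members called in several comparisons and for the highest per arm, and of each other list up to 3 called genes in each comparison with wild type. Hif1a, Slc16a3, Slc16a7 and the Irf2 KO change of Slc2a9 fall outside that rule. Of the listed pathway genes 18 were not analysed here. A result for one listed gene is not reported here.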

Additional observations from a re-analysis of the deposited data

How the results depend on the processing

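No direction of a called member reversed under any alternative. Of the values recomputed for called members, 50 of 60 stayed past the threshold in the libraries labelled Bcl6 cKO, 129 of 200 in Irf2 KO and 144 of 160 in Nr4a1 KO. Whichever library was left out, 0, 1 and 6 members stayed past it throughout.

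Counts of members called lower in Bcl6 cKO, 3 as reported, were 1 without a trend in the prior variance, 5 with only the 2 groups fitted and 0 to 5 leaving out single libraries. Members called higher in Irf2 KO, 6 as reported, were 3 without the trend and 1 to 6 leaving out libraries. Those called lower, 4 as reported, were 0 without the trend, 1 after quantile normalization, centring or the GC and length correction, 2 with only the 2 groups or with the block and the correction together, and 0 to 4 leaving out libraries. Members called higher in Nr4a1 KO, 0 as reported, were 1 with a filter of 4 CPM or with voom weights (chosen after seeing the data), 2 after quantile normalization or centring, and 0 to 1 leaving out libraries.

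The median change of members in Bcl6 cKO (-0.0814) was -0.0547 after quantile normalization, -0.0114 after centring and -0.0258 after the GC and length correction, with or without the block (-0.132 to -0.0553 leaving out libraries). In Nr4a1 KO (-0.205) it was -0.163, -0.125, -0.0752 and -0.0462 with the 4 CPM filter, quantile normalization, centring and the correction, with or without the block (-0.205 to -0.144 leaving out libraries). In Irf2 KO (0.06) it was -0.02 without Irf2 KO replicate 2. The cause of these shifts was not tested. Over all genes, centring added 0.07 to the log2 changes of Bcl6 cKO, 0.10 to those of Irf2 KO and 0.13 to those of Nr4a1 KO. In that order, the share of calls that were higher went to 40.7%, 59.3% and 50.7% with centring, against 27.1%, 42.9% and 26.1% without it.

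Replicate numbers do not pair the samples by any label. Deviations of same-numbered libraries correlated at -0.003 to 0.18. With the replicate number as a block, members called were 0 higher and 3 lower in Bcl6 cKO, 4 higher and 3 lower in Irf2 KO, and 0 higher and 7 lower in Nr4a1 KO. With 2 libraries per genotype, small changes and members with few reads, such as Pcx and Aldoc, are poorly resolved.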
